A study of Mus musculus with 32 samples.

Results

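The expression of 9 cyclin genes was followed through 32 mouse liver arrays: the D-type cyclins Ccnd1, Ccnd2 and Ccnd3, the E-type cyclins Ccne1 and Ccne2, the A-type cyclin Ccna2, the B-type cyclins Ccnb1 and Ccnb2, and the F-box cyclin Ccnf. Members were the non-control probes that the array design annotates with one of these 9 symbols, 13 of the 55681 probes on the array. After dim probes were set aside, 8 of the 9 cyclins were among the 21073 genes tested, and only Ccne2 had no probe bright enough. The other two probes of Ccnb1 and the second probes of Ccnd3 and Ccne1 are described beside the probe that stands for each gene.

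Cyclins are the regulatory subunits of the cyclin-dependent kinases, and each class is made and destroyed in its own stretch of the cell cycle. D-type cyclins respond to growth signals and, with Cdk4 or Cdk6, begin the phosphorylation of the retinoblastoma proteins, and E-type cyclins with Cdk2 complete it and open S phase. Cyclin A2 serves DNA synthesis and entry into mitosis, and cyclins B1 and B2 with Cdk1 drive mitosis until the anaphase-promoting complex has them degraded. Most hepatocytes of an adult liver rest outside the cycle and re-enter it after tissue is removed. Cyclin D1 is best known in the liver as a marker of that re-entry.

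The livers came from male C57/BL6 mice that were 8 weeks old when the diets began. Control mice (C) ate standard chow, and MCD mice ate a methionine- and choline-deficient diet for 3 weeks, which produces fatty, inflamed liver. Mice of the C+Fc-GLP-1 group (chow) and the M+Fc-GLP-1 group (MCD) had, besides, injections of a GLP-1 receptor agonist every second day over the last 2 weeks, while C and MCD received saline. The sources differ on the agent. The study's methods name Fc-GLP-1 at 10 nmol/kg, and the source names of all treated mice give Fc-GLP-1 for the weeks before surgery. The sample descriptions and the growth protocol name instead a dual agonist of GLP1R and GCGR, in the protocol at 4.4 mg/kg per day, and the source names of C+Fc-GLP-1 after PH give a dual agonist for the weeks after surgery. The agent is written here as the group names have it, and whether C+Fc-GLP-1 after PH had the same agent as the other treated groups is not settled by the labels. Each of the 4 treatments was sampled before partial hepatectomy (before PH) and 2 weeks after removal of 70% of the liver (after PH), with diet and treatment carried on per the growth protocol. There were 8 groups of 4 arrays, and the labels describe the livers of a group as independent. The samples after PH came only from mice that lived through surgery. Samples before PH were liver taken out at surgery per the study, and some sample titles share a stem across the times, but the labels do not say whether any sample after PH came from the same mouse as 1 before PH.

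The 8 hepatocyte markers examined, among them Alb, Apoa1 and Hnf4a, were well above background on all 32 arrays. The share of probes well above background was 36.3 to 69.2% per array, with a median of 51.9%. The arrays lay on 5 slides, each scanned in 1 run. C and MCD before PH shared a slide, as did the 2 Fc-GLP-1 groups before PH and the 2 Fc-GLP-1 groups after PH, whereas C after PH and MCD after PH each had a slide of their own. The MCD comparisons before PH, and the one under Fc-GLP-1 after PH, were therefore made within a slide. An additive slide effect cancels in the interactions. In every other comparison slide and group cannot be told apart. Per the file headers, C after PH and MCD after PH were read on 1 scanner and all other groups on another. Fc-GLP-1 against none after PH, and C and MCD after against before PH, therefore also set 1 scanner against the other. A level below is a log2 signal from which the 75th percentile of its array was subtracted, so that 0 is the brightness exceeded by 1 spot in 4, and levels of different probes are not compared. A difference was called when limma's adjusted p over all 21073 genes was below 0.05. Ranges of groups are described below as overlapping or not, and the share of all genes with ranges apart was not counted.

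The start of Ccnb1, Ccnb2, Ccnf and Ccne1 is shown first, because the 2 B-type cyclins moved together over the arrays while Ccnf and Ccne1 did not move with them. Each line is the 250 bases before the annotated start, read 5′ to 3′ on the gene's strand from RefSeq on GRCm38.p6. Capitals mark CCAAT boxes (CCAAT or ATTGG) and the cell cycle homology region, CHR (TTTGAA or TTCAAA).
Ccnb1, chr13:100786487-100786736, minus strand: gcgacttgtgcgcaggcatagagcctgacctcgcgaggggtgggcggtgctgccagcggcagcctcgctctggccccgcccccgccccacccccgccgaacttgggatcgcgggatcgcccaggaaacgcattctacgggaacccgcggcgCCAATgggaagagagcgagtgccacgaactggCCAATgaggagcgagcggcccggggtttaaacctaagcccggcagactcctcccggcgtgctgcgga
Ccnb2, chr9:70421555-70421804, minus strand: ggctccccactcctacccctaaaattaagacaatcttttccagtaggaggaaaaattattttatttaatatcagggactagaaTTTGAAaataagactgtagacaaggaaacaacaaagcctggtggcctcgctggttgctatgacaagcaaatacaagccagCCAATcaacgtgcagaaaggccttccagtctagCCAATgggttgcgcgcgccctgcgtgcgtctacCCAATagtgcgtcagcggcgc
Ccnf, chr17:24251410-24251659, minus strand: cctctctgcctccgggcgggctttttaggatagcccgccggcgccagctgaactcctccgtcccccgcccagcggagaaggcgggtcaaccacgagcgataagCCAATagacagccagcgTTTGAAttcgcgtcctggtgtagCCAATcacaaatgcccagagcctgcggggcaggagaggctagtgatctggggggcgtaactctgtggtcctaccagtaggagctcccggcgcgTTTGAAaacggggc
Ccne1, chr7:38107491-38107740, minus strand: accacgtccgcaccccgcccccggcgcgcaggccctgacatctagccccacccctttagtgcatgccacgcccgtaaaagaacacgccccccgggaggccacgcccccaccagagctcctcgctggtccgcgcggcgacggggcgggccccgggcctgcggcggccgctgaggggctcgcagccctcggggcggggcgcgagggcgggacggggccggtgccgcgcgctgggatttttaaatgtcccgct

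CCAAT boxes are bound by NF-Y, and the CHR is the element through which the DREAM and MuvB complexes act on many mitotic genes. The Ccnb1 window held 2 CCAAT boxes, 99 and 67 bases before the start. The Ccnb2 window held 3, at 87, 54 and 21 bases, and a CHR match at 167 bases. Ccnf held 2 CCAAT boxes, at 147 and 107 bases, and 2 CHR matches, at 130 and 14 bases. The Ccne1 window held neither element, and none of the members' windows held an E2F site spelled TTTCCCGC or TTTGGCGC on either strand. Of 32851 windows of the same length, 33.8% held a CCAAT box, 16% a CHR match and 1.3% that E2F site. RefSeq windows were at hand for 5 of the 9 cyclins. The remaining windows were 2 of Ccnd3, 1 with a CCAAT box at 108 bases and 1 with no match. These are matches of letters and were not tested as binding sites.

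Before PH the MCD diet went with higher Ccnd1, Ccne1, Ccna2, Ccnb1 and Ccnb2 and lower Ccnd3. These were 6 of the 8 tested cyclins, and the median difference of the 8 was 2.20 on the log2 scale. Over all genes 26.4% were called in this comparison, 2305 higher and 3266 lower, with a median difference of -0.126. Under Fc-GLP-1 the diet difference before PH included 4 of the 8 cyclins, all higher (median 1.71), beside 10.4% of all genes (median 0.0356). No cyclin was called for Fc-GLP-1 on either diet before PH, where 2.11% of genes were called on chow and 7.22% on MCD. At an unadjusted p below 0.05 each of these comparisons had 2 cyclins, Ccne1 and Ccnf on chow and Ccnd2 and Ccnd3 on MCD. The share of all genes at that unadjusted threshold was not counted, so these numbers stand without a background.

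**Figure D1:**
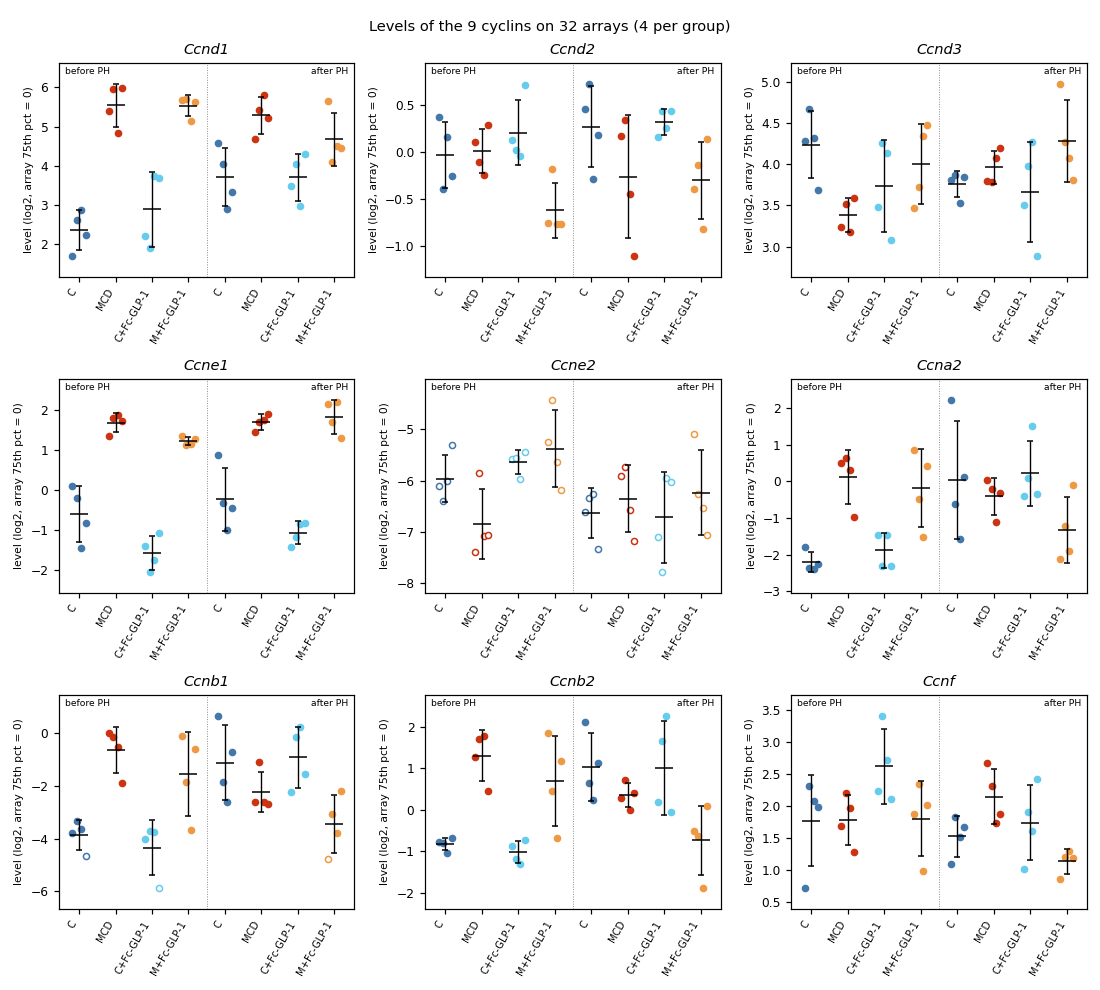
Level of each of the 9 cyclins (log2 signal minus the array's 75th percentile) on all 32 arrays, 1 panel per gene, with groups before PH left of the dotted line and after PH right of it; dots are arrays, open where the probe was not well above background, and black bars are mean ± SD of 4 arrays. Ccnd1 and Ccne1 sat higher in the MCD-fed groups, Ccna2, Ccnb1 and Ccnb2 rose and fell together, and every dot of Ccne2 is open.

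Ccnd1 was the D-type cyclin that followed the diet. Its levels before PH were 1.70, 2.63, 2.89 and 2.24 in C, and 5.40, 5.97, 4.83 and 5.98 in MCD. With Fc-GLP-1 they were 2.21, 1.91, 3.75 and 3.69 on chow, and 5.67, 5.69, 5.13 and 5.62 on MCD. All 8 MCD-fed livers lay above all 8 chow-fed livers. The MCD difference was 3.18 (SE 0.42, adjusted p = 4.25e-06), or 9.05-fold, and under Fc-GLP-1 it was 2.64 (SE 0.42, adjusted p = 9.66e-05). Fc-GLP-1 itself went with differences of 0.52 on chow and -0.02 on MCD (SE 0.42 each, adjusted p = 0.538 and 0.988).

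After PH Ccnd1 was still higher in MCD than in C, and it was not called between the diets under Fc-GLP-1. The levels after PH were 4.58, 4.06, 2.91 and 3.34 in C, and 4.68, 5.43, 5.81 and 5.21 in MCD, so that the lowest MCD liver stood just above the highest C liver. In C+Fc-GLP-1 they were 3.49, 4.04, 2.99 and 4.31, and in M+Fc-GLP-1 they were 5.65, 4.09, 4.50 and 4.45, and these groups overlapped. The MCD difference was 1.56 (SE 0.42, adjusted p = 0.0144), which was lost without C after PH replicate 3 (1.29, adjusted p = 0.0713) or replicate 4 (1.44, adjusted p = 0.0503). The difference under Fc-GLP-1 was 0.97 (adjusted p = 0.14). In C the rise from before to after PH was 1.35 (SE 0.42, adjusted p = 0.0317), and in C+Fc-GLP-1 the value was 0.82 (adjusted p = 0.359). In order of mean level the 4 MCD-fed groups came first, from 5.54 (SD 0.548, n = 4) in MCD before PH to 4.67 (SD 0.676) in M+Fc-GLP-1 after PH, and C before PH came last at 2.37 (SD 0.514), with every pair of neighbours overlapping.

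Ccnd2 and Ccnd3, the other two partners of Cdk4 and Cdk6, did not share that pattern. Ccnd2 stayed between -1.11 and 0.73 over the 32 arrays and was called in none of the 14 comparisons. Its lowest group was M+Fc-GLP-1 before PH, at -0.76, -0.18, -0.77 and -0.77, and the difference from C+Fc-GLP-1 of -0.83 had an adjusted p of 0.0542. Ccnd3 before PH was 4.28, 4.67, 4.32 and 3.68 in C against 3.24, 3.52, 3.17 and 3.59 in MCD, a difference of -0.86 (SE 0.30, adjusted p = 0.0344). The MCD livers all lay below the C livers. Leaving out C before PH replicate 1, 2 or 3, or MCD before PH replicate 1 or 3, brought the Ccnd3 difference to between -0.84 and -0.71 and the adjusted p to between 0.0658 and 0.103. It was also not called in 4 of 9 other settings, with each array centred on its median (-0.49, adjusted p = 0.253), after normexp background correction with quantile normalization (-0.75, adjusted p = 0.0603), on the authors' values (-0.76, adjusted p = 0.0685) or without the filter on dim probes (-0.86, adjusted p = 0.0535).

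A second Ccnd3 probe, which lies on chromosome 17 at 47736267 to 47736326 of mm9, less than 1 kb from the first at 47736579 to 47736638, was well above background on all 32 arrays and correlated with it at r = 0.685. On this probe the MCD difference before PH was -1.21 (adjusted p = 0.000618), and M+Fc-GLP-1 stood above MCD by 0.99 (adjusted p = 0.015) where the first probe gave 0.62 (adjusted p = 0.202). Its diet by Fc-GLP-1 interaction was 1.39 (adjusted p = 0.0195) against 1.13 (adjusted p = 0.107) on the first probe. Its fall in C from before to after PH was -0.76 (adjusted p = 0.035), against -0.48 (adjusted p = 0.297). The probes had the same sign in these 4 comparisons, and the choice of probe decided 3 of the calls.

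Ccne1, the cyclin that activates Cdk2 at the G1 to S boundary, was the only 1 of the 9 cyclins with a gap in the order of its groups. That gap lay between the MCD-fed and the chow-fed groups, and all other neighbours in the order overlapped. On chow Ccne1 was 0.10, -0.20, -1.45 and -0.82 in C before PH, and -1.39, -2.04, -1.74 and -1.08 in C+Fc-GLP-1 before PH. After PH these were 0.86, -0.33, -1.0 and -0.45 in C, and -1.42, -1.17, -0.86 and -0.82 in C+Fc-GLP-1. No chow-fed liver exceeded 0.86. On the MCD diet it was 1.34, 1.78, 1.87 and 1.73 in MCD before PH, and 1.35, 1.13, 1.14 and 1.26 in M+Fc-GLP-1 before PH. After PH these were 1.44, 1.69, 1.75 and 1.89 in MCD, and 2.13, 1.68, 2.19 and 1.29 in M+Fc-GLP-1. No MCD-fed liver fell under 1.13, so the 16 arrays of each diet did not overlap at either time. How many of all genes split by diet in this way was not counted, so the gap stands without a background.

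All 4 diet comparisons called Ccne1. The difference was 2.27 for MCD before PH (SE 0.32, adjusted p = 7.82e-06), 2.78 under Fc-GLP-1 before PH (adjusted p = 6.53e-07), 1.92 for MCD after PH (adjusted p = 0.000135) and 2.89 under Fc-GLP-1 after PH (adjusted p = 3.95e-07). These are 4.83-fold, 6.87-fold, 3.78-fold and 7.41-fold. On chow, C+Fc-GLP-1 differed from C by -0.97 before PH (adjusted p = 0.0985) and by -0.84 after PH (adjusted p = 0.18), neither of them called. Without C before PH replicate 3 the former was called. Ccne1 after against before PH differed by 0.01 to 0.60 in the 4 treatments, with adjusted p of 0.349 or more. A second Ccne1 probe was well above background on 9 arrays and was not tested. These were 3 each of MCD before PH, MCD after PH and M+Fc-GLP-1 after PH. It was well above background on 0 of 4 arrays in both M+Fc-GLP-1 and C+Fc-GLP-1 before PH. The diet difference between those 2 groups could therefore not be read on it. Ccne2, the other E-type cyclin, was dim on all 32 arrays, at no time well above background, so its level has only an upper bound here.

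**Figure D2:**
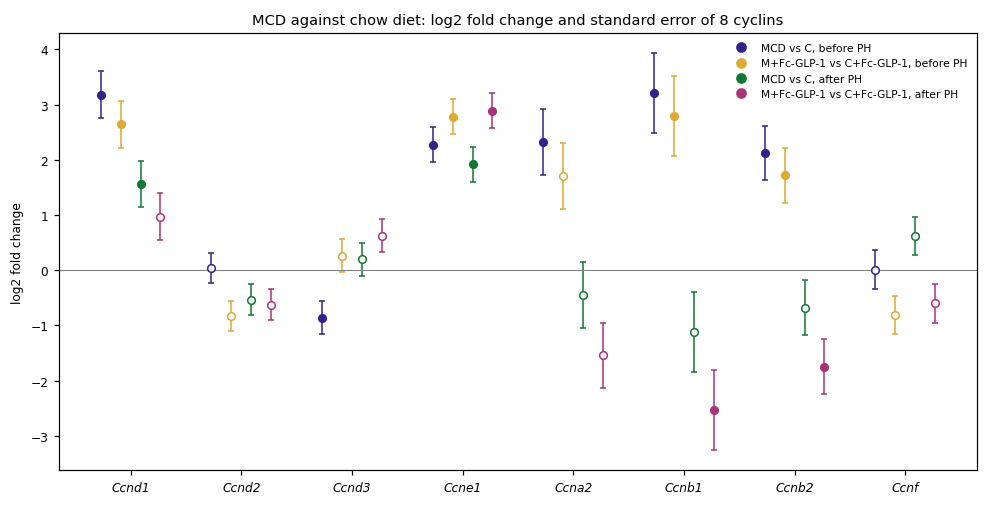
Difference between MCD-fed and chow-fed livers (log2 fold change ± SE, 4 arrays per group) for the 8 tested cyclins, without and with Fc-GLP-1, before and after PH; filled points were called at an adjusted p below 0.05. Ccne1 was called in all 4 comparisons, and under Fc-GLP-1 Ccnb1 and Ccnb2 stood above 0 before PH and below 0 after it.

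Ccnb1, whose protein activates Cdk1 at the entry to mitosis, was higher on the MCD diet before PH. It was -3.77, -3.33, -3.64 and -4.66 in C, and 0.01, -0.16, -0.53 and -1.91 in MCD. In C+Fc-GLP-1 it was -4.01, -3.72, -3.76 and -5.87, and in M+Fc-GLP-1 it was -0.09, -1.84, -3.68 and -0.60. The last array of each chow group was not well above background. The MCD livers all lay above the C livers, and M+Fc-GLP-1 replicate 3 lay just above the highest C+Fc-GLP-1 liver. The MCD difference was 3.20 (SE 0.73, adjusted p = 0.00183), or 9.21-fold, and 1.70 after normexp correction (adjusted p = 0.00955). The difference under Fc-GLP-1 was 2.79 (adjusted p = 0.0121), and it was not called without C+Fc-GLP-1 replicate 4 (2.28, adjusted p = 0.0575), M+Fc-GLP-1 replicate 1 (2.30, adjusted p = 0.0562) or M+Fc-GLP-1 replicate 4 (2.47, adjusted p = 0.0511), nor after normexp correction (1.32, adjusted p = 0.0954).

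Ccnb2, a B-type cyclin found at the Golgi apparatus, and Ccna2, which pairs with Cdk2 and then Cdk1, moved with Ccnb1. Ccnb2 before PH was -0.78, -0.79, -1.03 and -0.67 in C, and 1.28, 1.72, 1.77 and 0.45 in MCD. With Fc-GLP-1 it was -0.87, -1.18, -1.31 and -0.73 on chow, and 1.85, 0.45, -0.69 and 1.17 on MCD. Neither pair of groups overlapped, although M+Fc-GLP-1 replicate 3 was again close to the chow level. The differences were 2.13 (SE 0.49, adjusted p = 0.0022) without Fc-GLP-1 and 1.72 (SE 0.49, adjusted p = 0.0228) with it. The latter was not called without C+Fc-GLP-1 replicate 2 (1.67, adjusted p = 0.0581) or 3 (1.62, adjusted p = 0.0629) or M+Fc-GLP-1 replicate 1 (1.33, adjusted p = 0.0999) or 4 (1.56, adjusted p = 0.0767). After normexp correction the values were 1.41 (adjusted p = 0.0284) and 1.34 (adjusted p = 0.0832).

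Ccna2 before PH was -1.81, -2.37, -2.39 and -2.25 in C, and 0.50, 0.65, 0.31 and -0.97 in MCD, and these did not overlap. With Fc-GLP-1 it was -1.47, -2.30, -1.46 and -2.31 on chow, and 0.86, -0.49, -1.53 and 0.43 on MCD, where replicate 3 reached down into the chow range. The differences were 2.33 (SE 0.59, adjusted p = 0.00481) and 1.70 (SE 0.59, adjusted p = 0.0639).

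The genes around the cyclins were read from lists. In MCD against C before PH 26.4% of all genes were called, 2305 higher and 3266 lower. Of 14 Cdk partners and switches, 13 were tested for MCD before PH, 6 were higher and none lower, with a median of 0.838. Cdk1, the partner of the mitotic cyclins, was higher by 2.54, and Wee1 and Pkmyt1, kinases that hold Cdk1 inactive, by 1.81 and 1.62. Of 17 E2F, RB and DREAM regulators, 16 were tested, 4 were higher and 2 lower, with a median of -0.0359. Rbl1 (p107) was higher by 3.15 and Foxm1, an activator of mitotic genes, by 1.93, while E2f5, at -1.47, was lower. Of 13 genes of cyclin ubiquitination, 10 were tested and 2 were higher, Cdc20 by 3.66 and Ube2c by 2.86, both of them activators of cyclin B degradation. All 7 CDK inhibitors were tested and 3 were higher, Cdkn2c by 2.05, Cdkn1c by 1.34 and Cdkn1b by 0.71. Of 10 proliferation markers, 8 were tested and all 8 were higher, with a median of 2.43. Of 17 cyclins outside the cell cycle, 15 were tested, with 1 higher and 2 lower and a median of 0.00709.

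Some markers of other liver cells were also called in the MCD comparison before PH, in which 26.4% of all genes were called. Of the 7 macrophage and Kupffer cell markers, all well above background on all 32 arrays, 6 were higher, with a median of 1.57. Their summed level was 5.90 to 6.77 in C and 6.95 to 8.45 in MCD. Of 7 stellate cell markers 6 were tested and 3 were higher (median 1.08), and 3 of 7 neutrophil markers were higher (median 1.5). Of the 8 hepatocyte markers 2 were lower, Serpina1a among them, whose sign turned under normexp correction. None of the 5 cholangiocyte markers was called. T and NK cell markers went both ways, with Cd4 (-2.66) and Cd3e (-1.12) lower and Klrb1c (1.45) and Cd3d (0.98) higher. So did B and plasma cell markers, with Cd79a (-1.15) lower and Jchain (2.07) higher. Erythroid Alas2 (-1.76) and Klf1 (-0.96) were lower and Epor (1.30) higher. Endothelial Stab2 (0.92) was higher, and the other endothelial markers, at -0.774 to 0.182, were not called. The part of these cells in the cyclin differences was not tested. In whole-liver RNA a change in the number of cells of a type and a change in RNA per cell cannot be told apart. Under Fc-GLP-1 before PH 10.4% of all genes were called between the diets. The macrophage markers had a median difference of -0.407, with 0 higher and 1 lower. Their summed level was 6.30 to 7.12 in C+Fc-GLP-1 and 5.60 to 6.93 in M+Fc-GLP-1. Of the endothelial markers Stab2 was higher by 0.998, and the others, at -0.544 to -0.074, were not called. Of the erythroid markers Alas2 was lower at -1.37, and the others, at -0.166 to 0.933, were not called. The part of these cells was not tested here either. In that comparison 2 of the 8 proliferation markers were higher, Birc5 by 2.27 and Plk1 by 2.06.

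After PH the mitotic cyclins no longer stood higher on the MCD diet. Of the 8 cyclins, MCD against C after PH called 2, Ccnd1 and Ccne1, beside 12.1% of all genes (median -0.124 of the cyclins and -0.0345 of all genes). M+Fc-GLP-1 against C+Fc-GLP-1 after PH called 3, with Ccne1 higher and Ccnb1 and Ccnb2 lower, beside 12.8% of all genes (median -0.613 of the cyclins and -0.0117 of all genes). By the source names the agent may differ between these Fc-GLP-1 groups, so that agent and diet cannot be told apart there. Fc-GLP-1 called no cyclin on chow (2.06% of genes) or on MCD (6.5% of genes). At an unadjusted p below 0.05 the former had 1 cyclin, Ccne1, and the latter 2, Ccnb2 and Ccnf, again without a counted share of all genes.

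Ccnb1 after PH was 0.65, -1.86, -2.60 and -0.71 in C, and -2.60, -1.10, -2.60 and -2.67 in MCD. It was -2.22, -0.14, 0.23 and -1.56 in C+Fc-GLP-1, and -4.79, -3.06, -3.79 and -2.19 in M+Fc-GLP-1, the first of these not well above background. The untreated groups overlapped widely, and under Fc-GLP-1 the ranges met at a single M+Fc-GLP-1 liver. The MCD difference was -1.12 (SE 0.73, adjusted p = 0.354), and under Fc-GLP-1 it was -2.54 (SE 0.73, adjusted p = 0.0188). The latter was not called without C+Fc-GLP-1 after PH replicate 2 (-2.28, adjusted p = 0.0636) or 3 (-2.15, adjusted p = 0.079) or M+Fc-GLP-1 after PH replicate 1 (-2.09, adjusted p = 0.083). After normexp correction it was -1.24 (adjusted p = 0.107).

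Ccnb2 after PH was 2.13, 0.65, 0.23 and 1.13 in C, and 0.30, 0.73, 0.00 and 0.41 in MCD. It was 0.18, 1.66, 2.27 and -0.06 in C+Fc-GLP-1, and -0.51, -0.64, -1.88 and 0.09 in M+Fc-GLP-1. Both pairs overlapped, the second by 1 liver on each side. The differences were -0.68 (adjusted p = 0.417) and -1.75 (SE 0.49, adjusted p = 0.017). The latter was not called without C+Fc-GLP-1 after PH replicate 2 (-1.53, adjusted p = 0.064) or 3 (-1.33, adjusted p = 0.0952) or M+Fc-GLP-1 after PH replicate 3 (-1.36, adjusted p = 0.0859), nor after normexp correction (-1.45, adjusted p = 0.0504). Ccna2 after PH was 2.23, -0.62, -1.59 and 0.12 in C, and 0.03, -0.22, -1.12 and -0.32 in MCD. It was -0.41, 0.10, 1.52 and -0.33 in C+Fc-GLP-1, and -2.12, -1.21, -1.89 and -0.09 in M+Fc-GLP-1. Ccna2 overlapped in both comparisons, and its difference under Fc-GLP-1 of -1.55 had an adjusted p of 0.088.

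Around these cyclins, under Fc-GLP-1 after PH, Cdc20 (-2.60) and Aurka (-1.65) were lower on MCD. Aurka, a mitotic kinase, was the only 1 of 8 proliferation markers called (median -1.02), where 12.8% of all genes were called. Of 16 E2F, RB and DREAM regulators E2f1 (-1.19), E2f2 (-1.25) and E2f6 (-0.92) were lower and Tfdp2, a partner of the E2Fs, was higher by 0.73 (median -0.0842). Of 13 Cdk partners and switches Wee1 and Cdk6 were higher by 1.79 and 1.65, and Cks2, a small Cdk-binding subunit, was lower at -1.15 (median -0.0244). Of 10 genes of cyclin ubiquitination Cdc20 was lower and Fzr1, the other activator of the anaphase-promoting complex, was higher by 0.79 (median -0.432). Of 7 CDK inhibitors Cdkn1c was higher by 1.32 and Cdkn2b lower at -1.54 (median 0.0867).

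Some markers of other cells were also lower in that comparison, in which 12.8% of all genes were called. Of 5 B and plasma cell markers 3 were lower (median -1.22), with a summed level of 1.47 to 2.32 in C+Fc-GLP-1 and 0.0426 to 1.5 in M+Fc-GLP-1. Of 6 tested T and NK cell markers 2 were lower (median -0.796), with 5.19 to 6.07 and 4.05 to 5.23. Of 7 macrophage markers 1 was lower (median -0.845), with 7.59 to 8.53 and 7.47 to 7.97. Erythroid markers went both ways, with Alas2 lower at -1.20 and Klf1 higher by 0.96. Endothelial Clec4g was lower at -1.08, and the other endothelial markers, at -0.258 to 0.155, were not called. No stellate cell, cholangiocyte or neutrophil marker was called. The part of these cells in the cyclin values was not tested.

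From before to after PH Ccna2, Ccnb1 and Ccnb2 rose in C, Ccnb1 and Ccnb2 rose in C+Fc-GLP-1, and no cyclin was called in MCD or M+Fc-GLP-1. Without C after PH replicate 1 none was called in C, and without any 1 of 4 arrays of its own none was called in C+Fc-GLP-1. In C 4 of the 8 cyclins rose, Ccna2, Ccnb1, Ccnb2 and Ccnd1, beside 14% of all genes called (median 0.86 of the cyclins and -0.0775 of all genes). In C+Fc-GLP-1 2 rose, Ccnb1 and Ccnb2, beside 0.835% of all genes (median 0.656 of the cyclins and 7.69e-05 of all genes). In MCD none was called, beside 9.43% of all genes, and in M+Fc-GLP-1 none was called, beside 1.71%. At an unadjusted p below 0.05 MCD had 1 cyclin, Ccnb1, and M+Fc-GLP-1 had 2, Ccnb1 and Ccnb2, all of them at lower values after PH. For all genes the share at that threshold was again not counted. The comparisons over time each set arrays of different slides against each other, and those in C and MCD also arrays of different scanners. In C+Fc-GLP-1 the source names also change the agent with time.

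**Figure D3:**
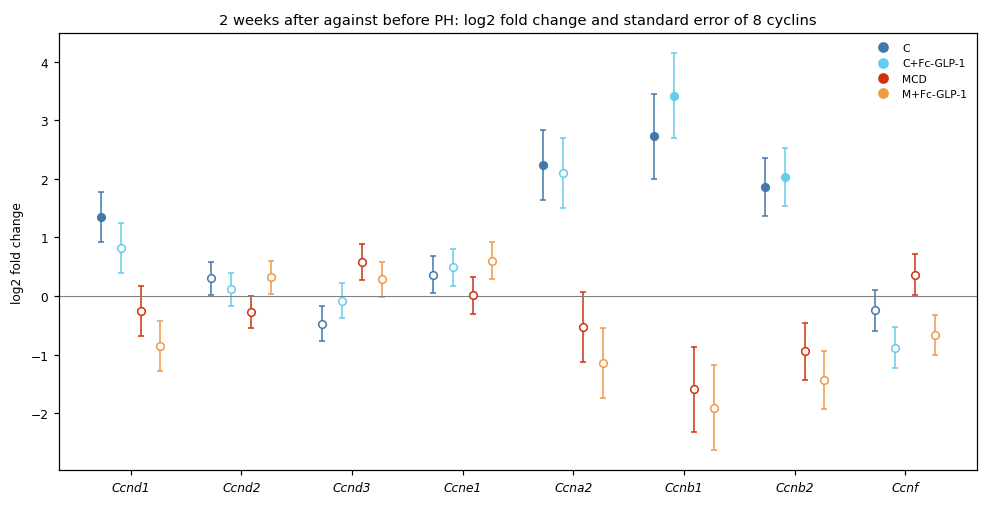
Difference between livers after and before PH (log2 fold change ± SE, 4 arrays per group) for the 8 tested cyclins in the 4 treatments; filled points were called at an adjusted p below 0.05. Ccna2, Ccnb1 and Ccnb2 lay above 0 in both chow groups and below 0 in both MCD groups.

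In C the rise was 2.24 for Ccna2 (SE 0.59, adjusted p = 0.0124), 2.73 for Ccnb1 (SE 0.73, adjusted p = 0.0127) and 1.86 for Ccnb2 (SE 0.49, adjusted p = 0.0124). No liver of Ccnb1, Ccnb2, Ccna2 or Ccnd1 in C after PH was below the highest before PH. C after PH replicate 1 had the highest value of each of the 4 in its group. Without it none of them was called, at 1.51 for Ccna2 (adjusted p = 0.0827), 2.13 for Ccnb1 (adjusted p = 0.0738), 1.49 for Ccnb2 (adjusted p = 0.0691) and 1.07 for Ccnd1 (adjusted p = 0.136). Ccnd1 was also not called without C before PH replicate 1 (1.13, adjusted p = 0.1) or 4 (1.31, adjusted p = 0.0649) or C after PH replicate 2 (1.24, adjusted p = 0.0786). After normexp correction the Ccnb1 rise was 1.39 (adjusted p = 0.0487) and the Ccnb2 value 1.23 (adjusted p = 0.0751).

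The same liver stood apart in other gene groups. In C after PH the mean level of the 8 proliferation markers was 1.75 in replicate 1 and -0.16, -1.18 and 0.46 in replicates 2 to 4. The mean of the 5 cholangiocyte markers was 1.37 in replicate 1 and -0.77, -1.58 and -0.66 in the others, and the mean of the 8 hepatocyte markers was 7.43 against 8.0, 8.30 and 7.96. From before to after PH in C 14% of all genes were called. All 7 macrophage markers rose, with a median of 2.03 and a summed level of 5.90 to 6.77 before and 7.07 to 9.21 after. Of 7 neutrophil markers 3 rose, S100a8, S100a9 and Mpo (median 1.14), and of 6 tested stellate cell markers 2 rose, Col1a1 and Col1a2 (median 0.311). Of 6 tested T and NK cell markers 2 rose and 1, Cd4, fell, a sign that turned on the authors' values (median 0.1), and of 5 tested erythroid markers 2 fell (median -0.696). Without replicate 1, a setting added for these lists after seeing the data, 6 of 7 macrophage markers (median 1.45), 3 of 7 neutrophil markers (median 1.88) and 2 of 6 stellate cell markers (median 0.389) rose. The proliferation markers called went from 7 of 8 to 2 of 8, none of the T and NK cell markers was called, and of the erythroid markers 1 rose and none fell. The share of all genes called without replicate 1 was not counted, so these counts stand without a background. Among single genes of the lists, Rbl1 rose by 3.06, Cdc20 by 2.87, Ube2c by 2.17 and Top2a, the topoisomerase of dividing cells, by 3.96, and Rbl2 fell by 1.32. The part of these cells and of this liver's other differences in the cyclin values was not tested.

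In C+Fc-GLP-1 the rise was 3.42 for Ccnb1 (SE 0.73, adjusted p = 0.027) and 2.04 for Ccnb2 (SE 0.49, adjusted p = 0.041), and for Ccna2 the difference was 2.10 (adjusted p = 0.0849). Every liver after PH lay above every liver before PH for both B-type cyclins. Leaving out 1 of replicates 1 and 4 before PH or 2 and 3 after PH of this group ended both calls, with adjusted p up to 0.0895 for Ccnb1 and 0.156 for Ccnb2. Leaving out any of 5 other arrays ended the Ccnb2 call alone. After normexp correction the values were 1.31 for Ccnb1 (adjusted p = 0.0844) and 1.25 for Ccnb2 (adjusted p = 0.0927). Of the 7 macrophage markers 1 rose (median 1.31, summed level 6.30 to 7.12 before and 7.59 to 8.53 after). Of the 8 proliferation markers 1 rose, Plk1 by 2.66, where 0.835% of all genes were called. The values of Ccnb1 after against before PH were -1.59 in MCD (adjusted p = 0.177) and -1.91 in M+Fc-GLP-1 (adjusted p = 0.176). Those of Ccnb2 were -0.95 (adjusted p = 0.246) and -1.43 (adjusted p = 0.134).

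The change of the diet difference with time was tested itself in the Fc-GLP-1 groups, which have both diets on 1 slide at each time. This interaction called 2 of the 8 cyclins and 0.0949% of all genes, 20 of 21073, with a median of -0.78 for the cyclins and -0.0279 for all genes. It rests on C+Fc-GLP-1 after PH, whose source names give another agent after surgery, so that by those labels agent, diet and time cannot be told apart in it. It was -5.32 for Ccnb1 (SE 1.03, adjusted p = 0.0323) and -3.46 for Ccnb2 (SE 0.70, adjusted p = 0.0437). Its parts were a Ccnb1 difference of 2.79 before PH and -2.54 after, and for Ccnb2 1.72 before and -1.75 after. For Ccna2 it was -3.25 (adjusted p = 0.134), for Ccnd1 -1.67 (adjusted p = 0.33) and for Ccne1 0.11 (adjusted p = 0.966). Cdc20, the activator of the anaphase-promoting complex, was the only gene called on the cell cycle lists, at -5.08 (adjusted p = 0.0433), and 0 of the 8 proliferation markers were called (median -1.75). The 7 macrophage markers had a median of -0.355 with none called. Leaving out 1 array at a time gave -6.03 to -4.81 for Ccnb1, with adjusted p of 0.00291 to 0.0983, and -3.93 to -3.05 for Ccnb2, with adjusted p of 0.0049 to 0.104. Without any 1 of 8 arrays neither was called, and these were C+Fc-GLP-1 before PH replicate 4, M+Fc-GLP-1 before PH replicates 1 and 4, C+Fc-GLP-1 after PH replicates 2 and 3, and M+Fc-GLP-1 after PH replicates 1, 2 and 3. Leaving out any of 12 further arrays ended the Ccnb2 call alone, so that it was lost with 20 of the 32 arrays. The calls were also lost in 7 of 11 other settings for Ccnb1 and in 6 of 11 for Ccnb2. After normexp correction the values were -2.56 (adjusted p = 0.243) and -2.79 (adjusted p = 0.153). The diet by Fc-GLP-1 interaction before PH called none of the 8 cyclins, beside 6.15% of all genes. At an unadjusted p below 0.05 it had 2, Ccnd2 and Ccnd3, with no share of all genes counted at that threshold.

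Ccnb1 has 2 further probes on chromosome 13. The one that stands for the gene lies at 101548722 to 101548781 of mm9, and the second, at 101551224 to 101551283, was well above background on 13 arrays and correlated with it at r = 0.801. It was well above background on none of 4 arrays in C before PH and none of 4 in C+Fc-GLP-1 before PH, so a difference from these groups has no measured size on it, and none is given. Of such differences called on the first probe, only MCD against C before PH was called on the second (adjusted p = 0.0117). The second probe passed the dim-probe filter only through MCD before PH, the 1 group with all 4 arrays well above background. That call is therefore not independent support for the first probe. M+Fc-GLP-1 against C+Fc-GLP-1 before PH was not called (adjusted p = 0.226). Neither was C or C+Fc-GLP-1 after against before PH (adjusted p = 0.219 and 0.146), nor the interaction with time (adjusted p = 0.273). Between the Fc-GLP-1 groups after PH the second probe was well above background on 3 arrays on chow and 1 on MCD. There it gave -1.85 (adjusted p = 0.0984), where the first probe gave -2.54 (adjusted p = 0.0188). The third probe, at 101553449 to 101553508, was well above background on 12 arrays, not on all 4 of any group, and was not tested. It correlated with the first at r = 0.524. After PH its means were -3.97 (SD 1.83) in M+Fc-GLP-1 and -3.66 (SD 1.8) in C+Fc-GLP-1, well above background on 2 and 3 arrays. Before PH its means were higher on the MCD diet, as on the first probe.

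Ccnf, the substrate receptor of an SCF ubiquitin ligase that marks proteins for destruction in G2, did not follow the B-type cyclins. It was 0.72, 2.31, 2.07 and 1.98 in C and 1.68, 2.20, 1.96 and 1.28 in MCD before PH, with overlapping ranges. Its highest group was C+Fc-GLP-1 before PH, with a mean of 2.62 (SD 0.589, n = 4), and its lowest was M+Fc-GLP-1 after PH, at 0.85, 1.20, 1.30 and 1.19. MCD after PH was 2.66, 2.31, 1.74 and 1.87, which did not overlap M+Fc-GLP-1 after PH. That difference of -1.01 (SE 0.35) had an adjusted p of 0.0748. Ccnf was called in none of the 14 comparisons.

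Between arrays the A- and B-type cyclins varied as 1 block. Within groups, after each group's mean was taken off, r over the 32 arrays was 0.841 for Ccna2 and Ccnb1, 0.815 for Ccna2 and Ccnb2, and 0.739 for Ccnb1 and Ccnb2. The arrays share their 75th percentile scaling, and livers within a group that were high for 1 of these genes were high for the others. Ccnd1 and Ccne1 had r = 0.79 over all arrays and 0.308 within groups, and Ccne1 with Ccnb1 had 0.244 and 0.138. Ccnf and Ccnb1 had -0.03 and 0.315.

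**Figure D4:**
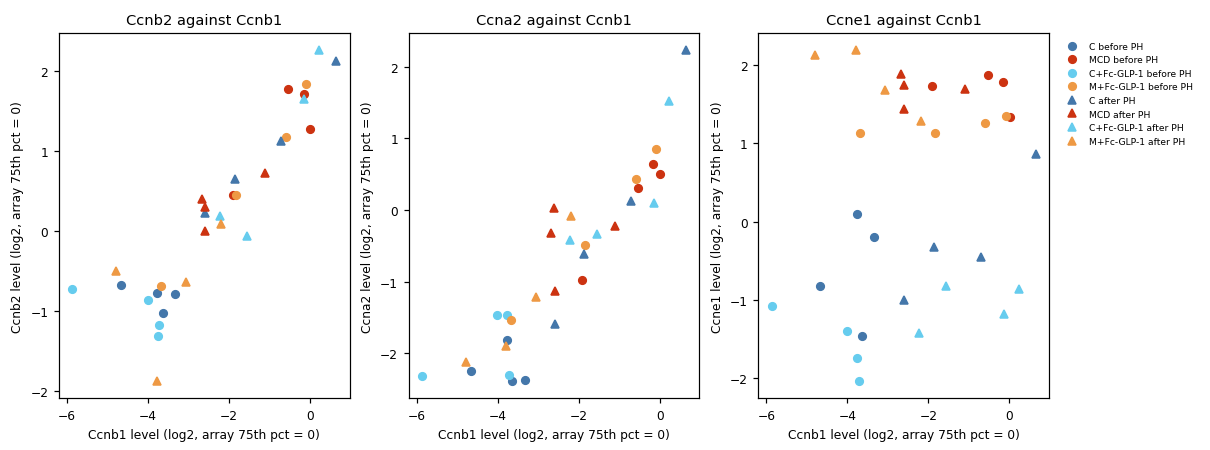
Levels of Ccnb2, Ccna2 and Ccne1 against Ccnb1 on the same 32 arrays (log2 signal minus the array's 75th percentile), coloured by treatment, with circles before and triangles after PH. Ccnb2 and Ccna2 climbed with Ccnb1 within the groups, whereas Ccne1 split by diet at all levels of Ccnb1.

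The genes whose levels were most like each cyclin over the 32 arrays differed by class. For Ccna2 they were Racgap1 (r = 0.955), Prc1 (0.945) and Cenpe (0.942), which act at the spindle, its midzone and the kinetochore. For Ccnb1 they were Cdc20 (0.951), Arhgef39 (0.93) and Aurka (0.919). For Ccnb2 they were a probe with no gene name, Cdc20 (0.961) and Prc1 (0.941). For Ccnd1 they were Stap1 (0.896), Aebp2 (0.874) and Cgref1 (0.873), and for Ccne1 an unnamed transcript (0.933), Slc22a29 (0.925) and Aqp4 (0.924). The closest genes of Ccnd2, Ccnd3 and Ccnf had r of 0.778, 0.732 and 0.716.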

How the data were processed

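Whole-liver RNA of 32 liver samples of male C57/BL6 mice was labelled with Cy3 and hybridised to Agilent 1-colour mouse arrays of 62976 spots. Per the file headers, Feature Extraction 10.7.3.1 subtracted background and detrended each array, giving the deposited processed intensity per spot, with probe positions on mm9. The authors also deposited normalized log2 values, which processing notes link to limma; their method is not given in the sources used here, and their quantiles differ between the arrays before and after PH, so they served as an alternative only.

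For the values given here, log2 processed intensity was centred on each array's 75th percentile over 59305 non-control spots, and spots of a probe were averaged. Of 55681 probes, 426 were dropped for outlier flags, 28937 were well above background throughout at least 1 group, and 27656 were named through RefSeq accessions. The brightest kept probe stood for a gene, which left 21073 genes. Second probes were tested in a separate fit of all 28937 kept probes, with adjustment over those probes. Group means of all 8 groups were fitted with limma 3.58.1 (R 4.3.3; lmFit, contrasts.fit, eBayes), with Benjamini-Hochberg adjustment over all genes at 0.05, in 14 comparisons. Slide was not a term, since it is nested in or equal to groups. The 75th percentile intensity was 209.4 to 778.4, and the number of arrays limits the precision. The fit was tested on simulated data.

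The named genes were the 9 cyclins in every comparison, the 3 genes most correlated with each over the 32 arrays, and up to 4 called members per list. The members and lists were chosen with earlier results of these data known. Comparisons that share a group share its arrays. Alternatives were background correction, centring, the authors' values, the dim-probe filter, the probe rule, the arrays in the fit, a replicate block, a block of treatment with number (added after seeing the data), array weights and leaving out each array. Promoter windows came from RefSeq (GRCm38.p6).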

Additional observations from a re-analysis of the deposited data

Results flagged for a closer look

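In 4 of 72 sets of 4 arrays (9 cyclins in 8 groups), 1 array lay further from the others than Dixon's 95% limit, and chance alone flags about 1 in 20. Ccnd1 in M+Fc-GLP-1 before PH replicate 3 was 5.13, below the others at 5.62 to 5.69. Ccnd2 in M+Fc-GLP-1 before PH replicate 2 was -0.18, above the others at -0.77 to -0.76. Ccnb1 in C+Fc-GLP-1 before PH replicate 4 was -5.87, below the others at -4.01 to -3.72, and was not well above background there. Ccnb1 in MCD after PH replicate 2 was -1.10, above the others at -2.67 to -2.60.

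The diet difference under Fc-GLP-1 differed between the times for both B-type cyclins, by the interaction with time. It was -5.32 for Ccnb1 and -3.46 for Ccnb2, where M+Fc-GLP-1 stood above C+Fc-GLP-1 before PH and below it after PH. These calls were lost in 7 of 11 other settings for Ccnb1 and 6 of 11 for Ccnb2, and without any 1 of 8 and of 20 of the 32 arrays.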

How the results depend on the processing

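Over 23 calls, 223 values under other settings kept their direction, 179 of them below the threshold and 44 not. With 1 array left out at a time, 736 values kept their direction, 668 below the threshold and 68 not. The replicate block gave 23 calls, as many as without it, and changed no count. Same-numbered arrays of different groups deviated from their group means with a mean r of 0.0173 (-0.22 to 0.516, 112 pairs). In the 16 of these pairs that join the times of 1 treatment the mean r was 0.0126 (-0.047 to 0.0876), against -0.00403 (-0.116 to 0.102) in 48 pairs of unlike number, so the values give no sign of pairing, and whether these are the same mice is not known. With treatment and number together as a replicate block, added after seeing the data, C+Fc-GLP-1 after against before PH had 1 call (Ccnb2 lost, adjusted p = 0.0527), C had 3 (Ccnd1 lost, adjusted p = 0.0608), and the interaction with time had 2.

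With normexp and quantile normalization the cyclins called were 2 for M+Fc-GLP-1 against C+Fc-GLP-1 before PH, 1 after PH, 1 for M+Fc-GLP-1 against MCD after PH, 1 for C+Fc-GLP-1 after against before PH, and 0 for the diet by time interaction. With the authors' values these were 2, 1, 1, 5 and 0, and MCD and M+Fc-GLP-1 after against before PH had 3 and 2, where the median of all genes itself shifted by 0.526 and 0.474. With the authors' values centred on each array's 75th percentile, C, C+Fc-GLP-1 and the interaction with time had 2, 1 and 0. With only the groups compared in the fit, M+Fc-GLP-1 against C+Fc-GLP-1 before PH had 2, C and C+Fc-GLP-1 after against before PH 2 and 0, and the interaction 0. Median centring gave 1 for C+Fc-GLP-1 after against before PH, 1 for diet by Fc-GLP-1 (Ccnd2, with the median of all genes at -0.472) and 0 for the interaction. Without the dim-probe filter M+Fc-GLP-1 against MCD before PH had 1, Ccne2, and the interaction 0. The mean over probes gave 1 for each of M+Fc-GLP-1 against MCD before PH and diet by Fc-GLP-1, Ccnd3 in both, and 1 for the interaction. The cause of these changes was not tested. The share of all genes called was not counted for these settings or for leaving out single arrays, so the counts here and below stand without a background.

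Leaving out 1 array gave 0 to 1 cyclins for C+Fc-GLP-1 against C before PH, 2 to 6 for M+Fc-GLP-1 against C+Fc-GLP-1 before PH and 1 to 4 after PH, 1 to 2 for MCD against C after PH, 0 to 1 for M+Fc-GLP-1 against MCD after PH, 0 to 4 for C and 0 to 3 for C+Fc-GLP-1 after against before PH, and 0 to 3 for the interaction with time. Ccnb1 was near background in chow-fed livers before PH, and of the 23 calls 1, Ccnd3, was of a difference under 1 on the log2 scale.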
